A study of Mus musculus with 6 samples.

Results

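The insulin-like growth factor (IGF) system was followed here through 9 genes: the ligand gene Igf1, the receptor genes Igf1r and Insr, and 6 genes for IGF-binding proteins, Igfbp2 to Igfbp7. They were chosen by gene symbol from the 55401 genes in the files, and all 9 were found. After a filter on low read counts, 8 of the 9 members and 16137 genes in all were tested. Igfbp2 was the member that did not pass. RNA was sequenced from 6 primary mouse cancer cell lines of the C57BL/6 strain, each grown from a primary tumour that was minced, digested with enzymes and cultured in medium with serum. The labels name no treatment of the lines, and whether host cells remained in the cultures is not given. The lines WT2, WT4 and WT6 came from tumours of hosts labelled WT. The lines KO1, KO3 and KO7 came from tumours of hosts labelled Rag1KO, that is, hosts meant to lack a recombinase subunit needed to make mature T and B cells. The tumour type, the age and sex of the hosts and whether each line came from its own animal are not given in the sources used here, and the p-values therefore speak only to the spread among these 6 samples. The comparison asks whether cancer cells grown under an adaptive immune system differ from cells grown without it.

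IGF1 is a secreted growth factor that liver releases into blood under growth hormone and that mesenchymal cells also make locally. It acts through the IGF1 receptor, a tyrosine kinase closely related to the insulin receptor, and both receptors signal through IRS adaptors to PI3K and AKT. IGF-binding proteins hold IGFs outside the cell with high affinity, which prolongs their life and limits or directs their access to the receptor, and proteases such as PAPP-A release the ligand by cutting the binding protein.

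Each library held 55409583 to 62998051 reads assigned to genes. Levels are given as normalized counts, the reads of a gene after division by a size factor that evens out depth between libraries. Several facts of the series bear on every result. Rag1 had 41, 109 and 183 reads in the lines labelled Rag1KO and 0 reads in each line labelled WT, so the targeted gene was higher in the lines meant to lack it. The counts do not show which part of the gene these reads cover and do not check the knockout. Groups are therefore named by their labels, and directions hold for the labels only. Xist, the RNA of the inactive X chromosome, had 59775 normalized counts in WT2 and 32733 in WT4 and at most 15.3 elsewhere, while the other 4 lines expressed the Y-linked gene Ddx3y at 2156 to 5332 normalized counts. Another Y-linked gene, Eif2s3y, had 1484 to 2541 reads in the lines labelled Rag1KO and 0 in WT6, as in WT2 and WT4. For WT2 and WT4, host label and this sex-linked difference cannot be told apart. WT6 stood apart: over 16137 genes its log2 levels correlated with those of the other lines at Pearson r = 0.759 to 0.814, against 0.902 to 0.943 among the other 5. Of 10 fibroblast markers, Col1a2, Col3a1 and Vim were at 105461 normalized counts or more in all lines. Others were uneven: WT6 had 206 normalized counts of Col1a1 and 0.880 of Thy1, Lum was at 0 in KO3 and at 78.3 or less in every line but WT4, Dcn ran from 197 to 11372, and Fap from 4.03 in WT2 to 686 in WT6. Markers of epithelium, endothelium, skeletal muscle and melanocytes had lower sums than the fibroblast list in every line. The 8 epithelial markers summed to 10.6 to 4856 normalized counts in lines labelled WT and 1762 to 6337 in lines labelled Rag1KO, with Krt19 from 0.880 in WT6 to 6287 in KO1 and Epcam at 0 in all lines. The 7 endothelial markers summed to 41.4 to 1049 and 241 to 1531, with Tek up to 1243 in KO7 and Cldn5 at 0 in all. The 7 skeletal muscle markers summed to 2.64 to 69.5 and 21.3 to 377, with Des at 373 in KO3 and Myod1, Myog and Pax7 at 0 in all. The 7 melanocyte markers summed to 639 to 2254 and 711 to 1770.5, mostly Mitf, with Sox10 at 323 in KO7 and Dct at 0 in all. The labels name no cell type, so there was none to check against markers.

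The bases just before the start of a gene were searched for short motifs, and the windows of some of the members are printed below. The windows of Igfbp2 and Igfbp6 are not printed, and their counts are given after the sequences. RefSeq (GRCm38.p6, the same assembly as mm10) had a start for 8 of the 9 members. Each line gives the 250 bases before that start, 5′ to 3′ on the gene's strand. Capitals mark the motifs searched on both strands, which were the TATA box hexamer TATAAA, its AT-rich variant TATATA, a further variant TTTAAA, and lastly GGGCGG. The first 3 can overlap one another, and GGGCGG is the core of the GC box bound by Sp1-type factors. The motifs were chosen after the sequences had been seen. The windows are Igf1 at chr10:87860861-87861110 (plus strand), Igf1r at chr7:67952007-67952256 (plus strand), Igfbp3 at chr11:7213924-7214173 (minus strand), Igfbp4 at chr11:99040994-99041243 (plus strand), Igfbp5 at chr1:72874866-72875115 (minus strand) and Igfbp7 at chr5:77408046-77408295 (minus strand).
Igf1: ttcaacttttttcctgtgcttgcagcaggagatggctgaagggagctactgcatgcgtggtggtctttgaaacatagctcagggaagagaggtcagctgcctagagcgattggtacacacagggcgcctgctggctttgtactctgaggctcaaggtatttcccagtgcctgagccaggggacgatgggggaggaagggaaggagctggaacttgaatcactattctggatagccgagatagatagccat
Igf1r: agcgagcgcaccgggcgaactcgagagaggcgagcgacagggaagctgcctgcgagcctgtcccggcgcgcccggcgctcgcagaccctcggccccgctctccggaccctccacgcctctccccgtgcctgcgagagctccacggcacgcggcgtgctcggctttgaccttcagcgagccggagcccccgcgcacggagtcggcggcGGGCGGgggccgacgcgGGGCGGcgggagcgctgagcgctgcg
Igfbp3: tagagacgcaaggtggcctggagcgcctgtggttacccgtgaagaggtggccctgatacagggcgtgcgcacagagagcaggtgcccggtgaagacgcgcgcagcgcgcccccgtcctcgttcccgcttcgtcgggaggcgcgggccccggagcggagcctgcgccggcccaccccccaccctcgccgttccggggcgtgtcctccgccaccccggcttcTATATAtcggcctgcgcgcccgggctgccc
Igfbp4: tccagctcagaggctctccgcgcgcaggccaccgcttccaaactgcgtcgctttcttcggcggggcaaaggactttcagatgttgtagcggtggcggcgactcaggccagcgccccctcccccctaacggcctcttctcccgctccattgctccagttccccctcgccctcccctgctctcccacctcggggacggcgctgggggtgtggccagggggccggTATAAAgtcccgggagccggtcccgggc
Igfbp5: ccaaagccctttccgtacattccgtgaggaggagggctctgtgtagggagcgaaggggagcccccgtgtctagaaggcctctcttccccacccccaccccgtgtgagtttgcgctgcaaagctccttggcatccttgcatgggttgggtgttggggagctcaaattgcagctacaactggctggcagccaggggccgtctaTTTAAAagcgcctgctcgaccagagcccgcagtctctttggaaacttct
Igfbp7: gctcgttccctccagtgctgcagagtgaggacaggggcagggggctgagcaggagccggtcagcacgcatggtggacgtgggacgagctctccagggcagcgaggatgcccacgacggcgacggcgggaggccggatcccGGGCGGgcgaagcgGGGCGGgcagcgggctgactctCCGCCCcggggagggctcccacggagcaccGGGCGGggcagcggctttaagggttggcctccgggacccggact

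The Igfbp4 window held TATAAA beginning 28 bases before the start, and the Igfbp3 window held TATATA beginning 30 bases before it. The Igfbp5 window held TTTAAA beginning 49 bases before the RefSeq start. That window reaches into the annotated gene, whose first base on the minus strand is 72874884, so the motif lies nearer to the annotated start. Igfbp7 and Igf1r held none of these AT-rich motifs and had 4 and 2 copies of GGGCGG. The Igf1 window held none of the motifs. It lies inside the annotated gene, which begins at 87858265, so it precedes a start within the gene and not the first annotated base. Among 32851 windows of the same length, 12.4% held TATAAA, 5.25% TATATA, 12.1% TTTAAA and 32.7% GGGCGG. G and C made up 77.6% of the Igf1r window, 74.0% of Igfbp7, 73.2% of Igfbp3, 69.2% of Igfbp4, 58.8% of Igfbp5 and 52.8% of Igf1, against a median of 52.4% over all windows. The CG step, the site of DNA methylation, occurred 42 times in the Igf1r window, 32 times in Igfbp3, 26 times in Igfbp7, 22 times in Igfbp4, 10 times in Igfbp5 and 5 times in Igf1, with a median of 6 over all windows. The Igfbp6 window, not printed, held TATAAA beginning 148 bases before the start and no GGGCGG. G and C made up 49.6% of it, and it held 7 CG steps. The Igfbp2 windows, also not printed, held none of the AT-rich motifs and 3 and 0 copies of GGGCGG. They had 67.2% and 56.4% G and C and 14 and 11 CG steps. The second of them, chr1:72825137-72825386, lies inside the annotated gene, which begins at 72824503. These matches describe the letters in the windows and are not evidence of binding.

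**Figure D1:**
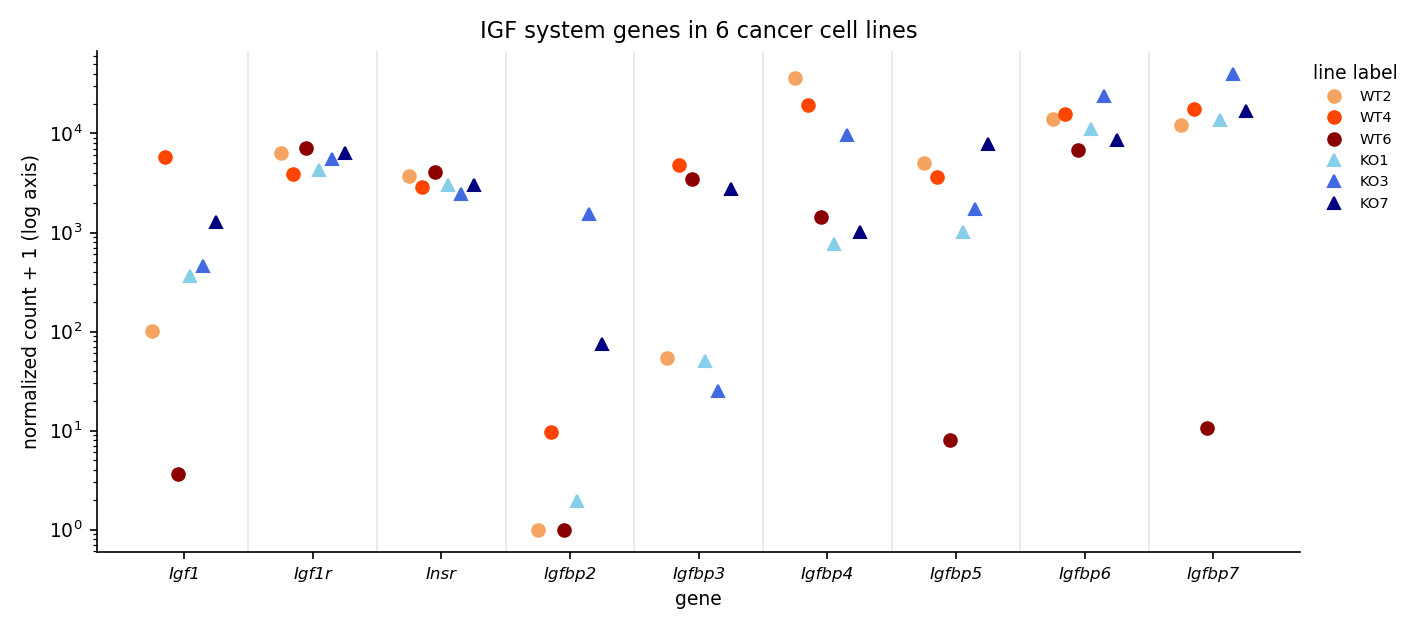
Normalized read counts plus 1 (log axis) of the 9 IGF system genes, with 1 point per line; circles are lines labelled WT and triangles lines labelled Rag1KO. Igf1r, Insr and Igfbp6 lie close together in all lines, while Igfbp5 and Igfbp7 are at 7.04 and 9.68 normalized counts in WT6 and at 1007 or more in the other 5.

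The ligand gene Igf1 varied by 2218 times between lines and did not follow the host label. Igf1 (ENSMUSG00000020053.18, chromosome 10, 87858265 to 87937042, GENCODE M21 on mm10) had 101, 5854 and 2.64 normalized counts in WT2, WT4 and WT6 and 362, 455 and 1285 in KO1, KO3 and KO7. WT4 was the highest line and WT6 the lowest, so the lines labelled WT enclosed the range of the lines labelled Rag1KO. The value of WT6 rested on 3 reads, with an exact Poisson 95% interval of 0.619 to 8.77 reads that covers counting error only. Igf1 in WT2, the next lowest line, was 38.1 times that value, with a counting interval of 12.7 to 188. Igf1os, an antisense gene that overlaps Igf1, had 0 reads in all 6 lines. Of the 10 leukocyte and macrophage markers, C1qa, C1qb and Tyrobp had 0 reads in all lines and Ptprc, Adgre1 and Itgam stayed at or below 3.83 normalized counts. The other 4, Cd68, Cd14, Csf1r and Lyz2, reached 142, 347, 429 and 1493 normalized counts, and the summed level of the list was 258 to 902 normalized counts in lines labelled WT and 445 to 2092 in lines labelled Rag1KO. Its lowest value was in WT6 and its highest in KO1. Of the 10 fibroblast markers, 4 were highest in WT4 (Dcn, Lum, Pdgfra and Col3a1), 3 in KO3 and 1 each in KO7, WT6 and WT2. The part of leukocyte or fibroblast cells in the level of Igf1 was not tested. In RNA from a whole culture, fewer cells that express a gene and less RNA per cell cannot be told apart.

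The receptor genes were expressed in every line within a narrow range. Igf1r (ENSMUSG00000005533.10, chromosome 7, 67952827 to 68233668) had 6412, 3868 and 7105 normalized counts in WT2, WT4 and WT6 and 4301, 5581 and 6366 in KO1, KO3 and KO7. Insr (ENSMUSG00000005534.10, chromosome 8, 3122061 to 3279617) had 3748, 2854 and 4051 normalized counts in the lines labelled WT and 3018, 2444 and 2998 in those labelled Rag1KO, in the same order of replicates. For both genes the groups overlapped. WT6, the line with almost no Igf1, was the highest, but only 1.11 times above the next line for Igf1r and 1.08 times for Insr. The highest line exceeded the lowest by 1.84 times for Igf1r and 1.66 times for Insr. On the log2 scale Igf1r spanned 0.88 and Insr 0.73 over the 6 lines, against a median of 1.30 for all genes tested, and 29.4% and 20.7% of genes had a smaller span. Per kilobase of exon Igf1r was above Insr in 6 of 6 lines, by 1.40, 1.11 and 1.44 times in WT2, WT4 and WT6 and by 1.17, 1.87 and 1.74 times in KO1, KO3 and KO7. Cells that carry both receptors can form hybrids of the pair, which bind IGF1 better than insulin. Transcript levels do not show receptor protein.

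The binding-protein genes split into one that every line expressed strongly, Igfbp6, and 5 that varied far more between lines. Igfbp6 (ENSMUSG00000023046.6, chromosome 15, 102144362 to 102149511) encodes a binding protein that prefers IGF2 over IGF1. It had 14075, 15634 and 6740.4 normalized counts in WT2, WT4 and WT6 and 11166, 23673 and 8647 in KO1, KO3 and KO7. WT6 was the lowest line and KO3 the highest, 3.51 times above it, and the groups overlapped.

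Igfbp7 (ENSMUSG00000036256.13, chromosome 5, 77349240 to 77408041) encodes a relative with low affinity for IGFs that is deposited in vessel walls and matrix. It had 12219.8, 17764 and 9.68 normalized counts in WT2, WT4 and WT6 and 13702, 40317 and 16698 in KO1, KO3 and KO7. WT6, with 11 reads, lay 1262 times below the next line, and the other 5 lines were within 3.30 times of each other. The span of Igfbp7 was 11.88 on the log2 scale, and 99.5% of genes tested had a smaller one. Igfbp5 (ENSMUSG00000026185.8, chromosome 1, 72857932 to 72874884), whose protein binds matrix and bone mineral, had a similar gap. Its normalized counts were 5026, 3619.9 and 7.04 in WT2, WT4 and WT6 and 1007, 1724 and 7886 in KO1, KO3 and KO7. WT6, with 8 reads, was 143 times below the next line, and the other 5 spanned 7.83 times. In that line the summed fibroblast markers were also lowest, at 495383 normalized counts against 1441873 to 2281368 in the other 5, but the members of the list differed. Col1a1, Col1a2, Pdgfrb and Thy1 were lowest in WT6, at 206, 151806, 8208 and 0.880 normalized counts. Fap was highest there, at 686, and Col3a1, Pdgfra, Dcn, Lum and Vim lay within the range of the other lines. The summed smooth muscle and pericyte markers were lowest in WT6 too, at 6839 against 70185 to 472108, and again the members differed. Acta2, Tagln, Cnn1 and Mcam were lowest in WT6, at 228, 2.64, 0 and 12.3 normalized counts. Cspg4 was highest there, at 6476 against 1018 or less, and Rgs5 and Myh11, at 117 and 3.52, lay within the range of the other lines. The part of these markers in the levels of Igfbp5 and Igfbp7 was not tested.

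Igfbp4 and Igfbp3 divided the lines in other ways. Igfbp4 (ENSMUSG00000017493.12, chromosome 11, 99041244 to 99054392) encodes a binding protein known mainly as a local inhibitor of IGF action and the chief substrate of PAPP-A. It had 36038, 19348 and 1448 normalized counts in WT2, WT4 and WT6 and 756, 9622 and 1021 in KO1, KO3 and KO7. WT2 and WT4 were above every line labelled Rag1KO, but WT6 lay below KO3, so the groups overlapped. Igfbp3 (ENSMUSG00000020427.11, chromosome 11, 7206086 to 7213923), the main IGF carrier of serum, had 53.4, 4752 and 3506 normalized counts in WT2, WT4 and WT6 and 49.8, 24.3 and 2750.3 in KO1, KO3 and KO7. WT4 and WT6 and KO7 were at 2750.3 normalized counts or above and the other 3 lines at 53.4 or below, with no line between. In WT6, Igfbp3 at 3506 normalized counts stood second among the binding-protein genes, below Igfbp6 at 6740.4.

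Igfbp2 (ENSMUSG00000039323.18, chromosome 1, 72824503 to 72852474), a binding protein abundant in fetal tissues, was the rarest of the 6. It had 0, 8.69 and 0 normalized counts in WT2, WT4 and WT6 and 0.958, 1532 and 74.6 in KO1, KO3 and KO7. KO3 was 20.5 times above the next line. No reads in WT2 and WT6 allow up to 3.02 and 2.64 normalized counts, taking 3 reads as the limit of a count of 0, so a level below those could have been missed at this depth.

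Igfbp2 and Igfbp5 are neighbours on chromosome 1. They point towards each other, 5457 bases apart, with no annotated gene between them. Their levels went separate ways: KO1 and WT2 had at most 1 read of Igfbp2 and 1007 and 5026 normalized counts of Igfbp5. Igfbp3 and Igfbp1 form a similar pair on chromosome 11, 3539 bases apart and again facing each other. Igfbp1, a liver-enriched gene repressed by insulin, had 0 reads in all 6 lines, the lines with abundant Igfbp3 included.

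Per kilobase of exon, the mean over the 6 lines ran from Igfbp7 (13883 ± 10889 normalized counts per kilobase, SD, n = 6) and Igfbp6 (11981 ± 5439) through Igfbp4 (2575 ± 3192), Igfbp3 (593 ± 667) and Igfbp5 (535 ± 486) to Igf1r (334 ± 76.3), Insr (232 ± 43.5), Igfbp2 (146 ± 335) and Igf1 (136 ± 228). Only 2 of the steps in this order held in all 6 lines, Igfbp6 above Igfbp4 and Igf1r above Insr. The order of the other neighbours changed from line to line: Igfbp7 was above Igfbp6 in 4 of 6 lines, Igfbp4 above Igfbp3 in 4, Igfbp3 above Igfbp5 in 2, Igfbp5 above Igf1r in 3, Insr above Igfbp2 in 5 and Igfbp2 above Igf1 in 1. The higher mean of Igfbp2 than of Igf1 thus came from KO3.

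**Figure D2:**
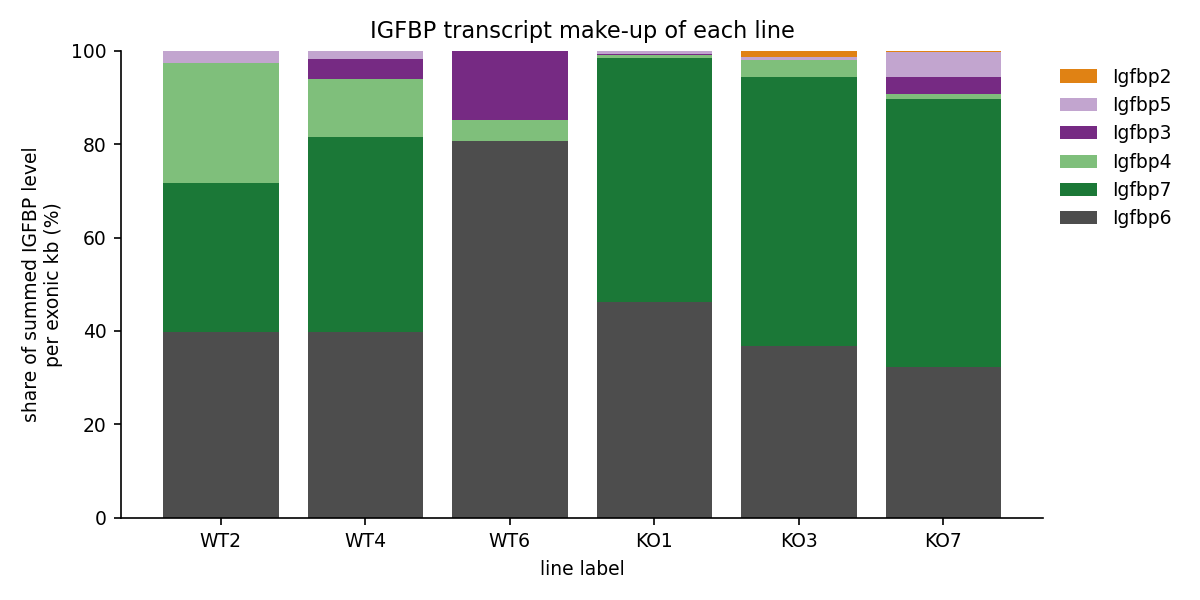
Share of each IGFBP gene in the summed IGFBP level of a line, from normalized counts per kilobase of exon, with 1 bar per line. Igfbp6 and Igfbp7 together fill most of each bar, and WT6 has 80.6% Igfbp6 and almost no Igfbp7.

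The make-up of binding-protein transcripts differed most in WT6. Igfbp7 made up 31.8%, 41.7% and 0.106% of the summed IGFBP level per kilobase in WT2, WT4 and WT6 and 52.2%, 57.6% and 57.4% in KO1, KO3 and KO7. Igfbp7 was thus the leading gene in the 3 lines labelled Rag1KO and in WT4. Igfbp6 led in WT2 and WT6, with 39.8% and 80.6%, and made up 32.3% to 46.2% in the other lines. Igfbp4 contributed 25.7% and 12.4% in WT2 and WT4 and 4.36% or less elsewhere. Igfbp3 reached 14.9% in WT6 and 4.31% or less in the other lines. The summed level was 31779, 35260.2 and 7519 normalized counts per kilobase in WT2, WT4 and WT6 and 21730.1, 57939 and 24050.7 in KO1, KO3 and KO7. WT6 thus had the smallest summed level as well as the most uneven make-up.

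**Figure D3:**
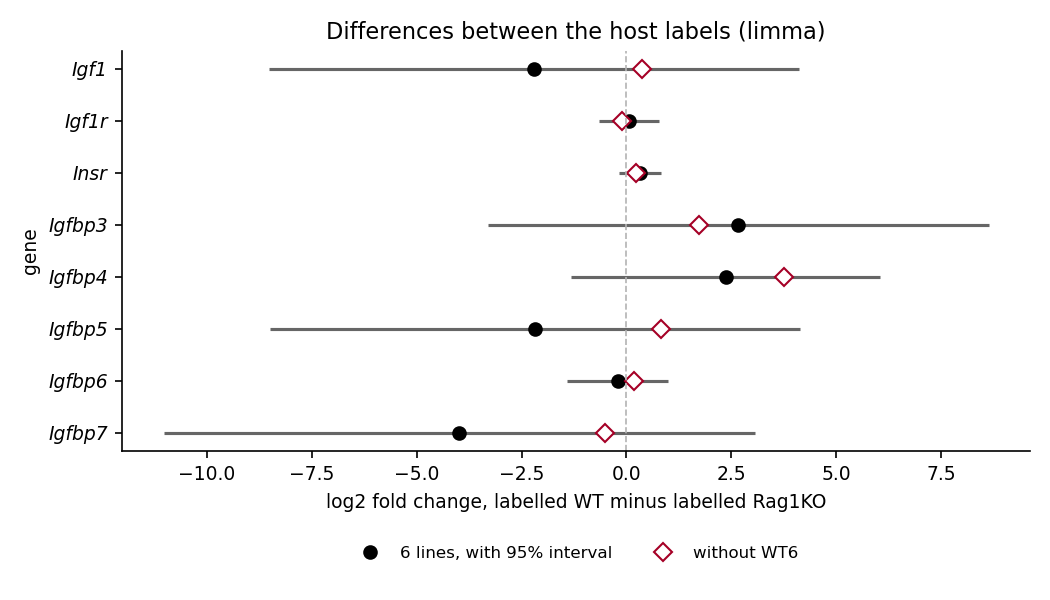
Log2 fold change of the 8 tested members (lines labelled WT minus lines labelled Rag1KO, limma on log2(value + 1)); filled points with 95% intervals use all 6 lines and open diamonds leave out WT6. Every interval includes 0, and the diamonds of Igf1, Igf1r, Igfbp5 and Igfbp6 lie on the other side of 0 from their points.

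Between the host labels, 0 of the 8 tested members passed limma's threshold of an adjusted p of 0.05, where 0.0062% of all 16137 genes did, and 0 had an unadjusted p under 0.05. edgeR and DESeq2 on the recovered reads also called 0 of the 8, where edgeR called 0% and DESeq2 0.403% of all genes. DESeq2 gave no adjusted p for Igf1. None of the 9 members had groups that did not overlap, while 12.1% of all genes tested did. The log2 fold change was positive for 4 of the 8 and negative for 4, with a median of −0.07 against 0.00 for all genes tested. Without WT6, limma called 0 of 9 members and 0.0298% of all genes. The lines labelled WT are then WT2 and WT4, the lines with high Xist and almost no Ddx3y. In each fit without WT6, host label and this sex-linked difference therefore cannot be told apart.

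The receptors had the narrowest intervals. Igf1r had a log2 fold change of 0.07 (SE 0.29, 95% interval −0.65 to 0.78, limma adjusted p = 0.972), from means of 5795 ± 1704 normalized counts in lines labelled WT and 5416 ± 1042 in lines labelled Rag1KO (SD, n = 3 each). Insr had a log2 fold change of 0.32 (SE 0.20, 95% interval −0.18 to 0.82, limma adjusted p = 0.850), from 3551 ± 622 against 2819.9 ± 326 normalized counts. These intervals leave out differences above 1.72 times for Igf1r and 1.77 times for Insr. Igfbp6 had a log2 fold change of −0.21 (SE 0.49, limma adjusted p = 0.937), with 12149.8 ± 4749 against 14495 ± 8047 normalized counts. It was 0.17 without WT6.

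For the variable members the intervals were too wide to place a difference. Igfbp4 had 18945 ± 17298 normalized counts in lines labelled WT against 3799.6 ± 5044 in lines labelled Rag1KO, a log2 fold change of 2.36 (SE 1.51, 95% interval −1.33 to 6.05, limma adjusted p = 0.850). It ran from 1.44 without WT2 to 3.76 without WT6, where the unadjusted p was 0.0203 and the adjusted p 0.982 in limma, and it was 1.68 without KO1, 1.89 without WT4 or without KO7 and 3.51 without KO3. Igfbp3 had 2771 ± 2434 against 941 ± 1567 normalized counts, with a log2 fold change of 2.67 (SE 2.44, limma adjusted p = 0.850) that became 4.74 without WT2 and 4.75 without KO7, 1.74 without WT6, 1.52 without WT4, 1.87 without KO1 and 1.37 without KO3. These 2 genes kept their direction with any single line left out, as did Insr and Igfbp7. Igfbp7 had 9998 ± 9083 against 23572 ± 14579 normalized counts, with a log2 fold change of −3.99 (SE 2.88, limma adjusted p = 0.850) that became −0.51 without WT6, −5.59 without WT2 and −5.86 without WT4. Igfbp5 had 2884 ± 2589 against 3539 ± 3781 normalized counts, with a log2 fold change of −2.18 (SE 2.58, limma adjusted p = 0.868) and of 0.83 without that line, −3.81 without WT2, −3.57 without WT4 and −1.32 without KO7. Its direction, like that of Igf1, thus rested on WT6.

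Igf1 had 1986 ± 3350 normalized counts in lines labelled WT against 701 ± 508 in lines labelled Rag1KO, yet a log2 fold change of −2.21 (SE 2.58, 95% interval −8.52 to 4.10, limma adjusted p = 0.866). The arithmetic mean followed WT4 and the mean of logs followed WT6. edgeR, which compares mean counts, gave 1.49 (adjusted p = 0.921), and limma without WT6 gave 0.37. Without WT4 the log2 fold change was −4.96, with an unadjusted p of 0.0232 and an adjusted p of 0.726 in limma. Igfbp2, tested when no filter was applied, had a log2 fold change of −4.84 (SE 2.37, limma adjusted p = 0.768), and without KO1 it was −7.32 with an unadjusted p of 0.00929 and an adjusted p of 0.926.

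**Figure D4:**
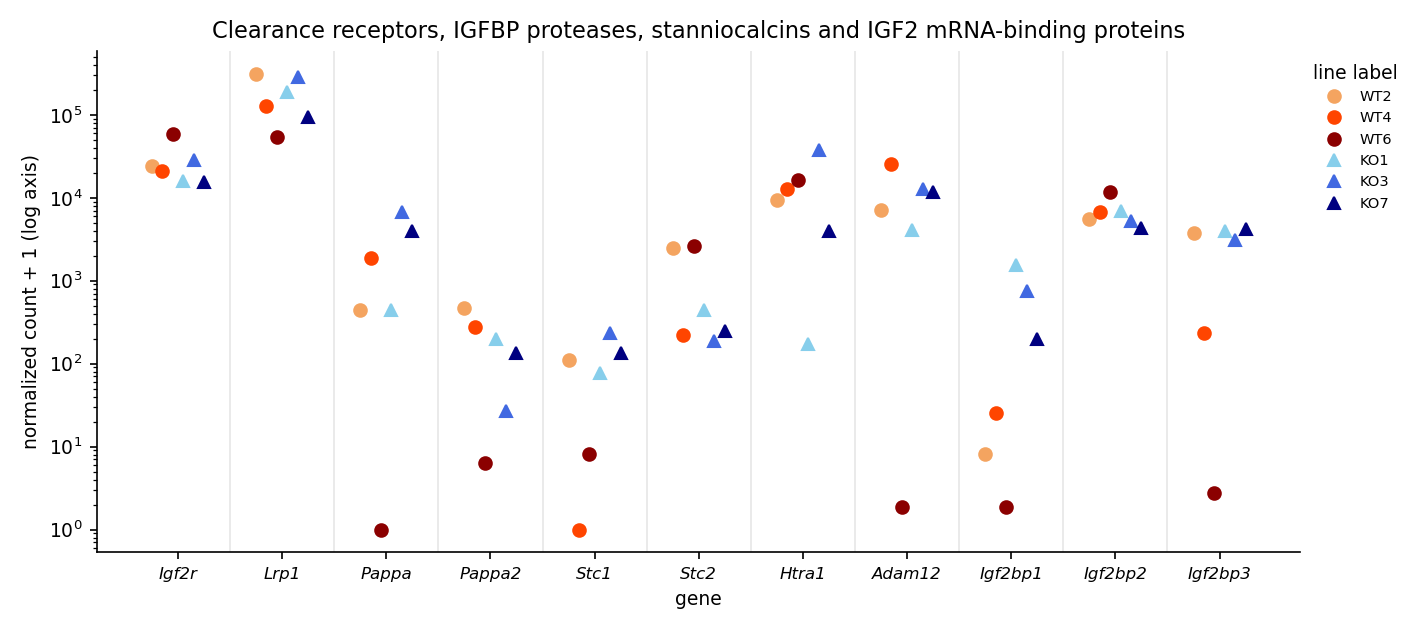
Normalized read counts plus 1 (log axis) of genes that clear IGFs, cut IGF-binding proteins, inhibit PAPP-A or bind Igf2 mRNA, with 1 point per line; circles are lines labelled WT and triangles lines labelled Rag1KO. WT6 is at 0 for Pappa and at 0.880 normalized counts for Adam12, and Igf2bp1 separates the host labels.

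The wider pathway was read from 53 genes listed by role, of which 47 were tested. Limma called 0 of them in either direction, 25 had a positive and 22 a negative log2 fold change, and the median was 0.05. The groups did not overlap for 2 of the 47, against 12.1% of all genes tested. Other ligands were scarce: Ins1 had 0 reads and Ins2 1 read over all lines, and Igf2 had 121 normalized counts in WT4, 10.7 in KO7 and at most 1.01 in the other 4 lines. WT4 was thus the highest line for both Igf1 and Igf2. Igfals, the serum partner of IGFBP3, was also highest there, at 94.6 normalized counts against 27.1 or less elsewhere (limma log2 fold change −0.88, 0.65 without WT6). The insulin receptor-related gene Insrr had at most 2 reads in any line.

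Clearance receptors were abundant. Igf2r, which takes up IGF2 for degradation, had 24253, 21219 and 59506 normalized counts in WT2, WT4 and WT6 and 15921, 28762 and 15655 in KO1, KO3 and KO7. Its log2 fold change was 0.70 (SE 0.47, limma adjusted p = 0.850) and 0.23 without WT6, and it was highest in the line with the least Igf1. Lrp1, a scavenger receptor that also binds IGFBP3, had 54038 to 314327 normalized counts, lowest in WT6 and highest in WT2 (log2 fold change −0.42, 0.21 without WT6).

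Genes for IGFBP proteases varied as widely as the binding proteins. Pappa, the protease of IGFBP4, had 445, 1859 and 0 normalized counts in WT2, WT4 and WT6 and 439, 6771 and 4017 in KO1, KO3 and KO7. WT2 and KO1, the lines with the most and the least Igfbp4, had nearly the same level of Pappa. The groups overlapped (log2 fold change −4.61, SE 2.91, limma adjusted p = 0.850, and −1.33 without WT6). Pappa2, which cuts IGFBP3 and IGFBP5, had 465, 276 and 5.28 normalized counts in the lines labelled WT and 195, 25.5 and 135 in those labelled Rag1KO, in the same order. Adam12, a membrane protease that cuts IGFBP3 and IGFBP5, had 7192, 25632 and 0.880 normalized counts in the lines labelled WT and 4113, 12767 and 11650.4 in those labelled Rag1KO. WT6, the line with almost no Igfbp5, was also the lowest for Pappa, Pappa2 and Adam12, 3 of the 6 tested genes of proteases and their inhibitors. Among all genes tested, WT6 was the lowest line for 30.5%. Htra1, a secreted serine protease, had the opposite gap: 173 normalized counts in KO1 against 3964 to 38081 in the other lines, with 16564 in WT6. Of the PAPP-A inhibitors, Stc2 had 2480.4, 219 and 2625 normalized counts in WT2, WT4 and WT6 and 188 to 440 in lines labelled Rag1KO, and Stc1 had 109, 0 and 7.04 against 75.7 to 232. Neither passed (limma log2 fold change 2.04, SE 1.03, adjusted p = 0.850 for Stc2, and −3.80, SE 1.69, adjusted p = 0.850 for Stc1).

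Genes acting inside the cell differed by role. Of 11 tested adaptor and inhibitor genes limma called 0, where it called 0.0062% of all genes. Their median span over the lines was 2.62 on the log2 scale, above the 1.30 of all genes tested. It ran from 0.48 for the phosphatase gene Ptpn1 to 12.26 for Grb10. Grb10, an inhibitory adaptor of both receptors, ran from 3.83 normalized counts in KO1 to 23744 in WT6. Grb14, a relative of Grb10 that inhibits the insulin receptor, was at 51.9 normalized counts in WT6 and 336 to 726 in the other lines. Sh2b1, an adaptor that supports signalling, had 1668 to 4236 normalized counts. Of 20 genes of the PI3K, AKT, FOXO and mTOR relay limma called 0, against the same 0.0062% of all genes. Their median span was narrower, 1.02 on the log2 scale, against 6.56 for the tested members. Foxo1, a transcription factor that AKT holds out of the nucleus, had 693 ± 263 normalized counts in lines labelled WT and 1155 ± 332 in lines labelled Rag1KO (log2 fold change −0.76, SE 0.36, limma adjusted p = 0.850). Eif4ebp1, the translation repressor that mTOR inactivates, was highest in WT6, at 14795 normalized counts against 3824 to 6380.3 in the other 5. Rictor, a subunit of mTOR complex 2, was lowest in that line, at 1952 against 2711 to 4942 normalized counts.

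On the growth hormone side, the receptor gene Ghr had 2911 to 5425 normalized counts, and its kinase gene Jak2 had 4077 to 8158. Stat5a, a transcription factor that carries the signal to Igf1 in liver, had 1268, 812 and 609 normalized counts in WT2, WT4 and WT6 and 1340, 1294 and 2156 in KO1, KO3 and KO7, so that the groups did not overlap (log2 fold change −0.86, SE 0.36, limma adjusted p = 0.850). Stat5b had 1807 ± 299 against 2462 ± 499.8 normalized counts (log2 fold change −0.44, limma adjusted p = 0.850).

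Igf2bp1, which encodes a fetal protein that binds Igf2 mRNA, was the other pathway gene whose groups did not overlap. It had 7.05, 24.1 and 0.880 normalized counts in WT2, WT4 and WT6 and 1549, 749 and 199 in KO1, KO3 and KO7, with a log2 fold change of −6.41 (SE 1.19, limma adjusted p = 0.850). DESeq2 called it, with an adjusted p of 3.23e-05, where it called 0.403% of all genes, and edgeR did not (adjusted p = 0.891). Igf2bp1 had 7, 25 and 1 reads in WT2, WT4 and WT6 and 1616, 646 and 205 in KO1, KO3 and KO7. It thus passed the filter on low read counts through the lines labelled Rag1KO. The call and the lack of overlap are therefore not independent of that filter. The log2 fold change lay between −7.30 and −5.43 with any single line left out, where limma's adjusted p was 0.674 or above. Its relative Igf2bp3 was at 3733, 236 and 1.76 normalized counts in WT2, WT4 and WT6 and at 3137 to 4201 in the lines labelled Rag1KO, and Igf2bp2 had 4301 to 11623 normalized counts in all lines.

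The genes whose log2 levels over the 6 lines were most like a member's were looked up among 1993 genes with a mean of at least 5 and a span of at least 3 on that scale. The points share library and depth, and each r was picked as one of the 3 highest of those genes. Igf1 was most like Vegfd, a lymphatic growth factor gene (Pearson r = 0.989, n = 6 lines), Clca3a1 (r = 0.987) and Nod1 (r = 0.979). Vegfd had 3197, 19633 and 283 normalized counts in WT2, WT4 and WT6 and 6217, 6356 and 10476 in KO1, KO3 and KO7, the same order of lines as Igf1. Igfbp5 was most like Vcan, the gene for the matrix proteoglycan versican (r = 0.994), which had 624 normalized counts in WT6 and 19441 to 60826 in the other lines, followed by Egfl7 (r = 0.991) and Samd10 (r = 0.985). Igfbp7 was most like Radil, Ccdc136 and Vdr, the vitamin D receptor gene, each with r = 0.999. Igfbp5 and Igfbp7 were far lower in WT6 than in the other lines, so r for both rested largely on that line. That Radil, Ccdc136 and Vdr were each lowest in WT6 thus follows from how they were picked. Igfbp4 was most like Pcdhga10 (r = 0.988), Tec (r = 0.970) and Ass1 (r = 0.946), and Igfbp3 like Ccl11, an eosinophil-attracting chemokine gene (r = 0.967), Olfr56 (r = 0.966) and S1pr1 (r = 0.946). These are descriptions of 6 lines and carry no test.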

How the data were processed

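Tools named in the submitters' processing notes, without their roles, are STAR 2.7.9a, Trim Galore 0.6.6, DESeq2 and FastQC, with mm10 as the genome build. The read counter, its strand setting and its annotation are not given in the sources used here. The labels' protocols name a stranded TruSeq kit. Each deposited file holds 1 signal value per gene. Multiplied by a single factor for its library, 100% of the values came out as whole reads within 0.01 reads, and the factors matched median-of-ratios size factors. Gene positions and exon lengths came from GENCODE M21, where 55141 of 55401 gene IDs were found.

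Genes were kept by filterByExpr on the recovered reads. limma 3.58.1 was fitted to log2(value + 1) over all 16137 genes with a mean-variance trend, lines labelled WT minus lines labelled Rag1KO, with two-sided p-values adjusted by Benjamini and Hochberg's method and called at 0.05. Folds on this scale understate changes of low genes. Alternatives were edgeR 4.0.16, DESeq2 1.42.0 and limma-voom on the recovered reads, other scalings, filters and a pseudocount of 0.1, and leaving out each line. Both limma and edgeR were checked on simulated counts with known changes. R 4.3.3, Python 3.11.15 and matplotlib 3.10.9 were used. Intervals are at 95%, and read limits cover counting error only.

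The members, gene lists and tests were chosen with earlier results of these data known. The text names all 9 members, the ligands, receptors, carriers, proteases and inhibitors of the pathway list, the 3 lowest p-values of each other list and the genes most like a member. Igfbp1 was named for its position, and other marker genes, Rag1, Xist, Ddx3y, Eif2s3y and Igf1os as checks. Ptpn1 was named for having the smallest span of the tested adaptor and inhibitor genes. Jak2, Stat5b, Igf2bp2 and Igf2bp3 complete short lists.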

Additional observations from a re-analysis of the deposited data

How the results depend on the processing

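No paired analysis was possible because the groups share no replicate number. The count of members past the threshold was 0 under all 14 alternatives. Over all genes, 1 passed in limma with 754 at an unadjusted p under 0.05, against 0 by edgeR (717 unadjusted), 0 by limma-voom (733) and 65 by DESeq2 (1055); with 1 line left out the count ran from 0 to 5, the 5 being without WT6. Of 112 member fold changes recomputed under alternatives 103 kept their direction and 9 did not. Igf1 was −2.21 on the log2 scale in limma and 1.49 by both edgeR and DESeq2. Of the pathway genes, Igfals went from −0.88 to 1.04 by edgeR and 1.05 by DESeq2, Htra1 from 2.09 to −0.13 by both, Adam12 from −3.60 to 0.19 by both, and Pappa2 from 0.07 to −0.095 by limma-voom. With 1 line left out, the range was −4.96 to 0.37 for Igf1, −0.10 to 0.34 for Igf1r, −3.81 to 0.83 for Igfbp5 and −0.51 to 0.21 for Igfbp6. It was −1.06 to 0.21 for Lrp1, −2.64 to 0.65 for Igfals, −1.09 to 2.01 for Pappa2, −6.19 to 0.68 for Adam12 and −0.37 to 0.19 for Jak2. Igf1, Igfbp5, Lrp1, Igfals and Adam12 changed side without WT6 only. The cause of these changes was not tested. Leaving out a line leaves 2 in 1 group. Depth limits Igfbp2 and the low values of Igf1, Igfbp5 and Igfbp7 in WT6; for the other member values the spread between lines, not depth, sets the error.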
